A study of Mus musculus with 8 samples.

Results

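The genes described here encode the Aurora and Polo kinases of meiotic division and the proteins that activate, anchor or target them: Aurka, Aurkb and Aurkc, Plk1, the activators Tpx2 and Bora, and the chromosomal passenger subunits Incenp, Birc5 and Cdca8. They were taken by symbol from a table of 25574 genes. Of the 9 symbols, 8 were found directly. Bora is listed in the table under its older symbol 6720463M24Rik, at the annotated position of Bora on chromosome 14, and is described beside the other 8. All 9 passed the filter for testing, a mean FPKM (fragments scaled to the length of the gene and the depth of the library) above 0.1 in at least 1 dataset, which 14292 genes passed.

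The RNA came from oocytes of CD1 mice, 8 weeks old, collected in the germinal vesicle stage 46 h after a gonadotropin injection, in medium with 100 µM IBMX, which blocks the resumption of meiosis. The oocytes were denuded, cultured without IBMX for 180 min and then exposed to 0.1 mg/mL cycloheximide, which holds ribosomes on mRNA, for 10 min. Lysates of 200 oocytes at nuclear envelope breakdown (NEBD) were spun through sucrose gradients of 10% to 50% that were cut into 10 fractions. The polysomal fractions of a gradient were pooled to give a P library and the non-polysomal fractions to give an NP library, with 4 libraries in each dataset. The top fraction was left out of both pools. The NP pool included the peaks of the ribosomal subunits and of single ribosomes. All libraries thus share the strain, the hormone, the culture and the cycloheximide, and no other treatment was analysed here. The comparison of P with NP asks how far each mRNA was found with polysomes at NEBD. FPKM is relative to the other RNA of the same library, so the values compare the composition of the 2 pools and not the number of molecules in each.

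Aurora A works at the spindle poles of dividing cells and is switched on and brought to spindle microtubules by TPX2, while Bora enables Aurora A to activate Polo-like kinase 1, which acts from mitotic or meiotic entry to cytokinesis. Aurora B is the enzyme of the chromosomal passenger complex, in which INCENP is the scaffold and activator, and survivin (Birc5) and borealin (Cdca8) target the complex to centromeres. Aurora C is a germ cell kinase that can take the place of Aurora B in this complex and is prominent in mouse oocytes. Oocytes at NEBD are transcriptionally silent and draw on stored mRNA, and for many such mRNAs short elements near the 3′ end are known to set the time of polyadenylation and translation.

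None of the 9 genes was called different between P and NP by limma at an adjusted p below 0.1, against 0.021% of all genes tested. Aurkc, Plk1 and Aurka were abundant in both datasets, with mean FPKM values of 213 to 643, and their ratios of mean P to mean NP were between 0.933 and 1.32. Tpx2 and Bora had the highest P over NP ratios of means, 2.31 and 2.58, and Aurkb and Cdca8 the lowest, 0.366 and 0.410. Single libraries carried part of this order, since the ratio of Bora was 1.22 without P replicate 3 and that of Aurkb 0.800 without NP replicate 1. The ratio of Incenp, 1.70, was 0.673 without P replicate 2, and that of Birc5, 0.755, was 1.27 without NP replicate 4. The 95% intervals of all 9 differences included equal levels.

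In the libraries, depth was read back from the steps between FPKM values. The numbers of fragments to which the FPKM values were scaled were 1299377 to 7594637 in NP and 2677946 to 4699328 in P. The NP libraries listed 11703 to 13753 genes above 0 and the P libraries 9139 to 11339, so every P library listed fewer than every NP library. All 12 oocyte marker genes had a mean above 0.1, with summed FPKM of 7519 to 15485 for NP and of 8765 to 37174 for P. Of 12 granulosa and cumulus markers, 6 had a mean above 0.1, namely Cyp19a1, Inha, Kitl, Star, Nr5a2 and Lhcgr. The sums were 15.3 to 97.8 in NP and 3.55 to 64.0 in P, and Foxl2, Inhba and Has2 were at 0 in every library. Of 6 blood and endothelial markers, Pecam1 and Cd68 were above that level, with NP sums of 12.7 to 99.4 and P sums of 6.36 to 77.7, and Hbb-b1, Hba-a1, Ptprc and Cdh5 were at 0. The part of such cells in the values below was not tested, and in pooled samples fewer cells of a type and less RNA per cell cannot be told apart.

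The 3′ ends of the transcripts were searched for 2 kinds of short element. Aurka, Aurkb and Aurkc each held the cytoplasmic polyadenylation element TTTTAT, with U for T in the RNA, within the last 100 bases of the annotated transcript. The principal transcripts of the other 6 genes held neither this element nor its longer form TTTTAAT there. The same held for the other annotated 3′ ends of Incenp, Birc5 and Cdca8, but 2 shorter transcripts of Tpx2, which end 667 bases upstream, held 1 element and no hexamer. The 3 Aurora sites are printed from the GENCODE M21 annotation of GRCm38, with the principal ends of Plk1 and Tpx2 for contrast. Each window lies in the 3′ UTR, is read 5′ to 3′ on the mRNA strand, and has the element and the hexamer in capitals.
Aurka: tttctgcatgttaaaggctattTTTTATgt
Aurkb: attatgaagaacaacaTTTTATAATAAAgt
Aurkc: tctcTTTTATgaagtgatgttaATTAAAac
Plk1: ctctttccttagctttatatatATTAAAat
Tpx2: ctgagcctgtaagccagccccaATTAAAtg
The Aurka window is chr2:172356247-172356276 on the minus strand. The others lie on the plus strand, for Aurkb at chr11:69051612-69051641, for Aurkc at chr7:7003044-7003073, for Plk1 at chr7:122169833-122169862 and for Tpx2 at chr2:152895284-152895313. From the end of TTTTAT to the end of the transcript there were 53 bases in Aurka, 31 in Aurkb and 38 in Aurkc.

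In Aurkb the element and the hexamer AATAAA were adjacent and shared no base. The hexamer AATAAA, or its variant ATTAAA, directs cleavage and polyadenylation. A hexamer was present in the same 100 bases of 8 of the 9 principal transcripts, and Aurka was the exception. Over 10968 annotated transcripts searched in the same way on the mRNA strand, 19.4% held an element of either form, 15.0% the shorter one and 5.62% the longer one, and 81.3% held a hexamer. A match is a description of the letters in this window only. In the table the gene interval of Aurkc ends at 7002945, so this window lies beyond the deposited model of Aurkc and within the GENCODE one.

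**Figure D1:**
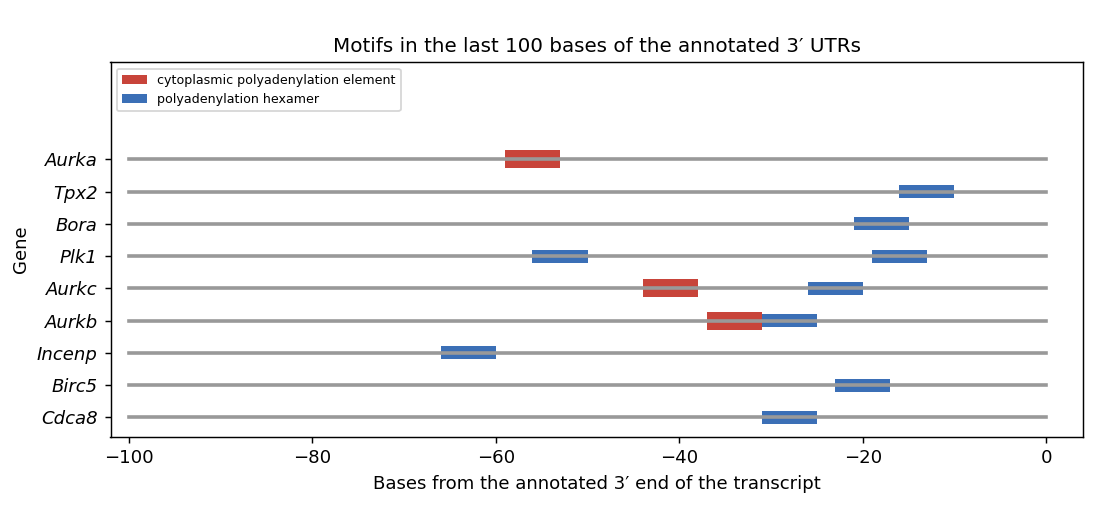
Motifs in the last 100 bases of the principal annotated transcripts of the 9 genes, drawn by distance in bases from the 3′ end (x axis). Red boxes are TTTTAT elements, present in the 3 Aurora genes, and blue boxes are polyadenylation hexamers, present in all but Aurka.

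Aurka, the spindle pole kinase, had FPKM values of 223, 345, 159.9 and 183 in NP replicates 1 to 4. In P replicates 1 to 4 it had 299, 110.2, 339.9 and 101. Of the P libraries, 2 lay above 3 of the NP libraries and 2 below all of them, so the datasets overlapped. The mean was 228 ± 82.5 in NP and 213 ± 125 in P (SD, n = 4 each). The limma difference on the log2(FPKM + 1) scale was −0.25 (SE 0.59, adjusted p = 0.866), and its 95% interval ran from 0.351-fold to 2.02-fold, P over NP. Of the 14292 genes tested, 0.021% (3 genes, all higher in NP) were called at an adjusted p below 0.1 and 0 calls among 9 genes is close to that share.

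Tpx2, the activator and microtubule anchor of Aurora A, had 30.9, 19.1, 41.8 and 48.4 FPKM in the NP replicates. In the P replicates it had 42.5, 93.5, 135 and 52.9. Every P value exceeded the NP value of the same number, but P replicate 1 lay below NP replicate 4, so the datasets overlapped. The mean was 35.0 ± 12.9 in NP and 80.9 ± 42.0 in P. The difference was 1.12 on the log2 scale (SE 0.61), with an unadjusted limma p of 0.0903 and an adjusted p of 0.541. Its interval ran from 0.870-fold to 5.41-fold. Without NP replicate 4 or without P replicate 1, the remaining libraries of Tpx2 did not overlap. Only these libraries crossed, so leaving either out fixes the separation, which is thus no evidence of a difference. With all libraries, none of the 9 genes was free of overlap, against 6.28% of all tested genes (0.357% with P higher and 5.92% with NP higher).

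The ratio of Aurka to Tpx2 within a library does not move with the scaling between libraries. Aurka exceeded Tpx2 by 7.21-fold, 18.1-fold, 3.83-fold and 3.78-fold in the NP replicates and by 7.05-fold, 1.18-fold, 2.53-fold and 1.90-fold in the P replicates. On the log2 scale, with 1 added to each FPKM, the mean was 2.68 ± 1.04 in NP and 1.32 ± 1.08 in P, a difference of −1.36. An exact 2-sided permutation test over the 70 assignments of the 8 libraries gave p = 0.114 (0.686 adjusted over the 6 ratios tested), where 0.0286 is the smallest p possible. P replicate 1 was the P library that lay among the NP libraries.

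Plk1, the Polo-like kinase, had nearly equal means in the 2 datasets. Its FPKM was 429.9, 703, 359.9 and 157 in NP and 379, 285, 310.2 and 629 in P. NP held both the highest and the lowest library. The means were 413 ± 225 and 401 ± 157, and the log2 difference was 0.07 (SE 0.58, adjusted p = 0.960), with an interval from 0.444-fold to 2.50-fold.

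Bora, the partner of Aurora A in the activation of Plk1, had 71.4, 18.1, 62.3 and 57.4 FPKM in NP. In P it had 57.9, 14.5, 349 and 119. P replicate 3 alone held 64.5% of the summed P values, and replicate 2 was the lowest library in both datasets. The means were 52.3 ± 23.5 in NP and 135 ± 149 in P, and the log2 difference was 0.73 (SE 0.86, adjusted p = 0.734), with an interval from 0.460-fold to 5.94-fold. Without P replicate 3 the log2 difference was 0.01. The ratio of Plk1 to Bora was 2.74 to 38.8 in NP libraries and 0.889 to 19.7 in P libraries, and its log2 difference of −0.65 had an exact permutation p of 0.657. Plk1 exceeded Aurka by 1.93-fold, 2.04-fold and 2.25-fold in NP replicates 1 to 3 and was 0.860 of it in replicate 4. In P the Plk1 to Aurka ratio was 1.27, 2.58, 0.913 and 6.24, and the exact permutation p of the log2 difference of 0.32 was 0.686.

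**Figure D2:**
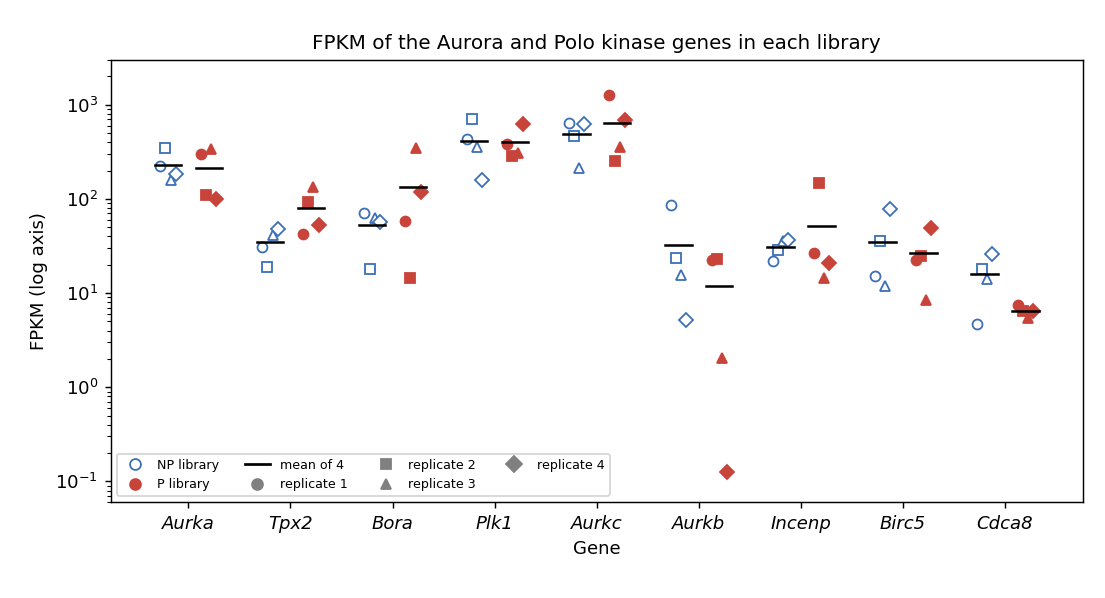
FPKM (log axis) of the 9 genes in each library, with open blue symbols for NP, filled red symbols for P, a symbol shape for each replicate number and a black line at the mean of 4. The NP and P libraries overlap for every gene, and the lowest point is Aurkb in P replicate 4, at 0.127 FPKM.

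Aurkc, the germ cell Aurora kinase, had the highest mean FPKM of the 9 genes. Its values were 647, 462, 211 and 628 in NP and 1282, 254, 353 and 685 in P. The highest library was P replicate 1 and the lowest NP replicate 3, and the other libraries lay in between without order. The means were 487 ± 202 and 643 ± 464, which placed Aurkc at the 98.9th percentile of tested genes in NP and at the 99.3rd in P. The log2 difference was 0.25 (SE 0.63, adjusted p = 0.875), with an interval from 0.465-fold to 3.03-fold, and it took the other sign without NP replicate 3 (−0.11) or without P replicate 1 (−0.18).

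The reads of Aurkc could in part belong to copies of the gene. The annotated Aurkc transcript matched 52 other stretches of the genome at 90% identity or more over at least 100 bases. The closest, annotated as Gm12463, lies at chr4:44752148-44753137 and was 98.9% identical over 990 bases. The other 51 lie between chr7:10810863-11594283, at 91.1% to 98.1% identity, among 9 annotated genes. None of these copies is listed in the table. Of the 1005 windows of 150 bases in the Aurkc transcript, 56.7% occurred unchanged in at least 1 copy, and no source used here states how such reads were assigned. The level of Aurkc is therefore uncertain, and the share of such reads in P and in NP was not tested. Plk1 had a copy of nearly its whole transcript on chromosome 5, annotated as Plk-ps1, at 93.6% identity over 2146 aligned bases. Birc5, Cdca8 and Tpx2 had partial copies, at up to 95.1% identity in Tpx2. No window of 150 bases in the transcripts of Plk1, Birc5, Cdca8 or Tpx2 was identical elsewhere. Aurka, Aurkb, Incenp and Bora had no such copy. Between the Aurora transcripts themselves the longest identical run was 25 bases, in Aurkb and Aurkc.

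Aurkb, the chromosomal passenger kinase of most dividing cells, was far less abundant than Aurkc. Its FPKM was 85.5, 23.8, 15.7 and 5.14 in NP and 22.4, 23.0, 2.06 and 0.127 in P. Every P value was below the NP value of the same number, by 0.05 on the log2(FPKM + 1) scale at replicate 2 and by 1.89 to 2.45 at the others. NP replicates 3 and 4 lay below P replicates 1 and 2, so the datasets overlapped. NP replicate 1 held 65.7% of the summed NP values. The P replicate 4 value rests on 1 recovered read (exact 95% Poisson interval 0.0253 to 5.57 reads) and that of P replicate 3 on 27. Such intervals cover counting error only, because the cDNA was amplified and copies of 1 molecule were not marked.

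The means of Aurkb were 32.5 ± 36.1 in NP and 11.9 ± 12.5 in P. The log2 difference was −1.71 (SE 1.11, adjusted p = 0.606), with an interval from 0.0587-fold to 1.60-fold. With reads in place of FPKM, by voom in limma, 1.53% of 13830 genes were called (1.52% with NP higher and 0.0145% with P higher). None of the 9 genes was among them, and the lowest adjusted p, that of Tpx2, was 0.514.

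Incenp, the scaffold of the passenger complex, had the tightest NP libraries of the 9 genes and the widest P libraries, by their coefficients of variation. Its FPKM was 22.1, 28.9, 35.4 and 36.3 in NP and 26.7, 147, 14.3 and 20.9 in P. P replicate 2 held 70.3% of the summed P values, on 1514 recovered reads, and of the other P libraries 1 lay within the range of NP and 2 below it. The coefficient of variation was 21.5% in NP and 121% in P. The means were 30.7 ± 6.61 and 52.2 ± 63.3. The log2 difference was 0.14 (SE 0.74, adjusted p = 0.942) with all libraries and −0.57 without P replicate 2.

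Birc5 (survivin), which reads the centromeric histone mark for the complex, had 15.1, 35.5, 11.8 and 77.4 FPKM in NP. In P it had 22.6, 25, 8.46 and 49.5. Replicate 4 was the highest and replicate 3 the lowest in both datasets. The means were 35.0 ± 30.2 and 26.4 ± 17.0, with a log2 difference of −0.25 (SE 0.77, adjusted p = 0.895) that was 0.23 after median scaling and 0.18 after quantile normalization.

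Cdca8 (borealin), the other targeting subunit, had 4.72, 17.8, 14.2 and 26.2 FPKM in NP. In P it had 7.48, 6.45, 5.43 and 6.49, the narrowest spread of the 9 genes, with a coefficient of variation of 12.9%. NP replicates 2 to 4 lay above all P libraries and NP replicate 1 below them. The means were 15.8 ± 8.92 and 6.46 ± 0.837, and the log2 difference was −0.97 (SE 0.76, adjusted p = 0.650), with an interval from 0.166-fold to 1.58-fold. Cdca8 shares 232 exon bases with 9930104L06Rik on the opposite strand, which had 4.87, 2.20, 0.344 and 17.8 FPKM in NP and 0.152, 1.67, 0.0805 and 0 in P. The library kit does not mark strand, so reads in the shared bases cannot be told apart. Plk1 likewise shares 156 exon bases with Gm44985 on the opposite strand, for which no value was used here.

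The subunits did not keep 1 ratio across libraries. Birc5 to Cdca8 was 0.833 to 3.20 across the NP libraries and 1.56 to 7.63 across the P libraries, with a log2 difference of 0.72 and an exact permutation p of 0.371. The Aurkc to Incenp ratio ran from 5.94 to 29.3 in NP. In P it was 48.0, 24.6 and 32.8 in replicates 1, 3 and 4 but 1.73 in replicate 2, where Incenp was high and Aurkc low. Its log2 difference was 0.11 (exact permutation p = 0.971). Aurkc exceeded Aurka in all 8 libraries, by 1.32-fold to 3.43-fold in NP and by 1.04-fold to 6.80-fold in P, with a log2 difference of 0.49 and an exact permutation p of 0.543. Per length of the principal transcript, as set out below, Aurkc was above Aurka in 5 of the 8 libraries only, but its rescaled values may be too low. None of the 6 ratios separated P from NP, and the lowest p adjusted over the 6 was 0.686. The smallest exact permutation p possible was 0.0286. A single ratio at that p would still have had an adjusted p above 0.05, so the adjusted values say little.

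**Figure D3:**
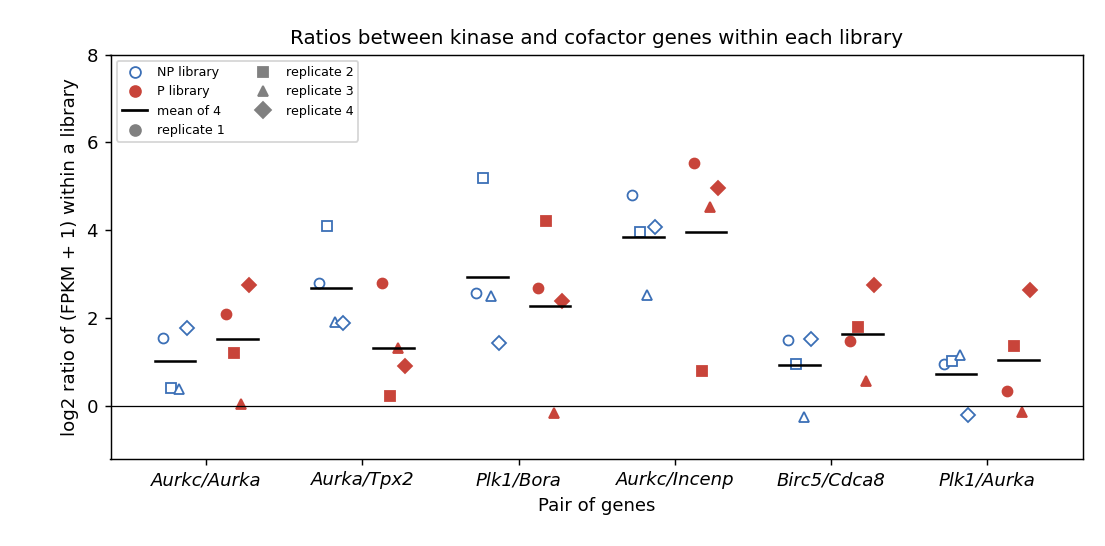
Log2 ratios of (FPKM + 1) between pairs of the genes within each library (y axis), with open blue symbols for NP, filled red symbols for P and black lines at the means of 4. Aurka/Tpx2 has the largest gap between means, −1.36, with P replicate 1 among the NP libraries, and all 6 pairs overlap.

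The order of levels was similar at the top and mixed below. In NP, Aurkc, Plk1 and Aurka took the first 3 places in all 4 libraries, and in all 4 Aurka exceeded Bora, the next by mean. Aurkc was above Plk1 in 2 of 4 NP and 3 of 4 P libraries, and Plk1 was above Aurka in 3 of 4 of each, so these neighbours did not separate. In P, Bora reached place 2 in replicate 3 and place 3 in replicate 4, and Incenp place 3 in replicate 2. Aurkb was below Birc5 in all 4 P libraries. Cdca8 was below Incenp in all 8 libraries on the FPKM scale, an order that turned in 4 of 8 with the lengths given next. Tpx2, Birc5, Aurkb and Incenp lay between 30.7 and 35.0 by mean NP FPKM and changed places from library to library.

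FPKM compares genes per length, and for some genes the length that fits the deposited values was far from that of the principal transcript. For Cdca8 it was 5177 bases against 1626, and for Birc5 3402 against 947. These 2 lengths, and those of Aurka, Aurkb and Tpx2, equal the merged exons of all annotated transcripts of the gene. For Aurkc, Incenp, Plk1 and Bora the length was found by search and is not known from the annotation. Rescaled to the principal transcript, the mean of Birc5 was 126 FPKM in NP and 94.8 in P, and that of Cdca8 50.1 and 20.6. Aurkb became 49.1 and 18, Aurka 302 and 282, and Aurkc 400.0 and 528. Plk1 stayed at 413 in NP and 402 in P, above Aurkc in NP on this scale. For Aurkc the fitted length was 948 bases against 1154 in the transcript. The deposited interval of Aurkc stops short of the 3′ end of that transcript, so reads beyond it would not have been counted. The rescaled Aurkc values may thus be too low, and its order with Plk1 and Aurka on this scale is uncertain. Cdca8 then exceeded Incenp in 3 of 4 NP libraries and in 1 of 4 P libraries, and Aurka exceeded Bora in all 8. The first 3 places in NP were no longer held by Aurkc, Plk1 and Aurka in replicate 4, where Birc5 was second. Bora (51.3 and 132), Tpx2 (37.6 and 86.6) and Incenp (30.5 and 51.9) moved little. The P over NP ratio of a gene is not touched by this rescaling.

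The 8 genes found by symbol were set beside all genes tested. The median log2 difference was −0.39 over all 14292 genes, of which 71.4% were below 0, and −0.09 over the 8 genes (0.07 with Bora). Of these 8, 4 lay above 0 and 6 above the median of all genes. The offset of all genes depended on the scaling, with medians of −0.17 after median scaling, −0.04 after quantile normalization and −0.94 on recovered reads. Aurkb and Cdca8 stayed below 0 and Tpx2 and Bora above 0 under every setting run, while Aurka, Aurkc, Incenp, Birc5 and Plk1 changed sign in at least 1. The coefficient of variation over 4 libraries had a median of 48.1% in NP and 61.7% in P for the 8 genes, against 58.3% and 84.5% for the 6415 tested genes with a mean above 10 FPKM in a dataset.

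**Figure D4:**
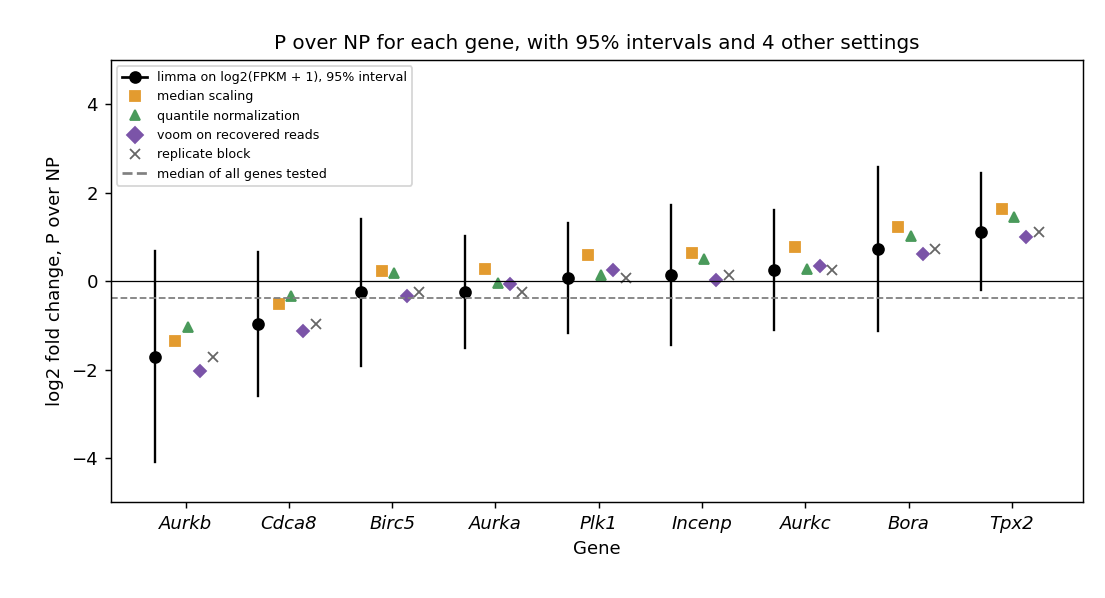
Log2 fold change of P over NP for each gene, with black points and bars for the limma estimate on log2(FPKM + 1) and its 95% interval, coloured symbols for 4 other settings and a dashed line at the median of all genes tested, −0.39. Every interval spans 0, from Aurkb at −1.71 to Tpx2 at 1.12.

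Other genes of these pathways were followed in 4 lists, and none of the 43 tested was called. In the Polo family, Plk4, the kinase of centriole duplication, had 34.3 ± 50.6 FPKM in NP and 14.6 ± 10.2 in P. Plk3 had 22.6 ± 19.1 and 2.26 ± 3.64, with every NP library above every P library, an unadjusted limma p of 0.00617 and an adjusted p of 0.405. Plk2 and Plk5, named to complete the family, were the remaining members. Plk2 was above 0 in NP replicate 3 only, at 14 FPKM, and Plk5 was at 0 throughout. Unadjusted p values below 0.05 were reached by 9.95% of all genes, 9.47% with NP higher and 0.476% with P higher.

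Of the 15 Aurora A partners, 13 were found, with 5 above and 8 below 0 on the log2 scale. Tacc3, a spindle microtubule protein phosphorylated by Aurora A, had 101 ± 12.3 FPKM in NP and 151 ± 107 in P. Nusap1, a microtubule-bundling protein, had 33.5 ± 23.2 and 86.0 ± 74.9, a log2 difference of 1.34 (SE 0.80, adjusted p = 0.572). Aurkaip1, an Aurora A interacting protein also known as a mitochondrial ribosome component and picked after its values were seen, had 109 ± 100.5 in NP and 8.38 ± 1.62 in P. Its NP libraries lay between 13.9 and 247 FPKM and its P libraries between 6.01 and 9.55, and its limma p was 0.00269 before and 0.376 after adjustment.

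Of the 12 genes that load the passenger complex or are acted on by it, 6 lay above and 6 below 0, and none had an unadjusted p below 0.05. Kif2c, the centromeric microtubule depolymerase regulated by Aurora B, had 108 ± 49.4 FPKM in NP and 92.6 ± 55.4 in P. Kif20a, the kinesin that carries the complex to the midzone, had 106 ± 23.8 and 106 ± 92.7. Of the 15 docking partners and targets of Polo, 4 lay above and 11 below 0. Bub1b, the checkpoint protein BubR1, had 933 ± 183 FPKM in NP and 1681 ± 868 in P, above all 9 genes described here. Prc1, the midzone microtubule bundler that docks Plk1, had 189.6 ± 147 and 594 ± 290.5. Its log2 difference of 1.84 (SE 0.64) had an unadjusted limma p of 0.0124 and an adjusted p of 0.416, and the datasets overlapped. Cdc25c, a phosphatase that activates Cdk1, was picked after its values were seen. It had 2.42 to 31.2 FPKM in NP and 0.321 to 0.962 in P, with an adjusted limma p of 0.405.

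**Figure D5:**
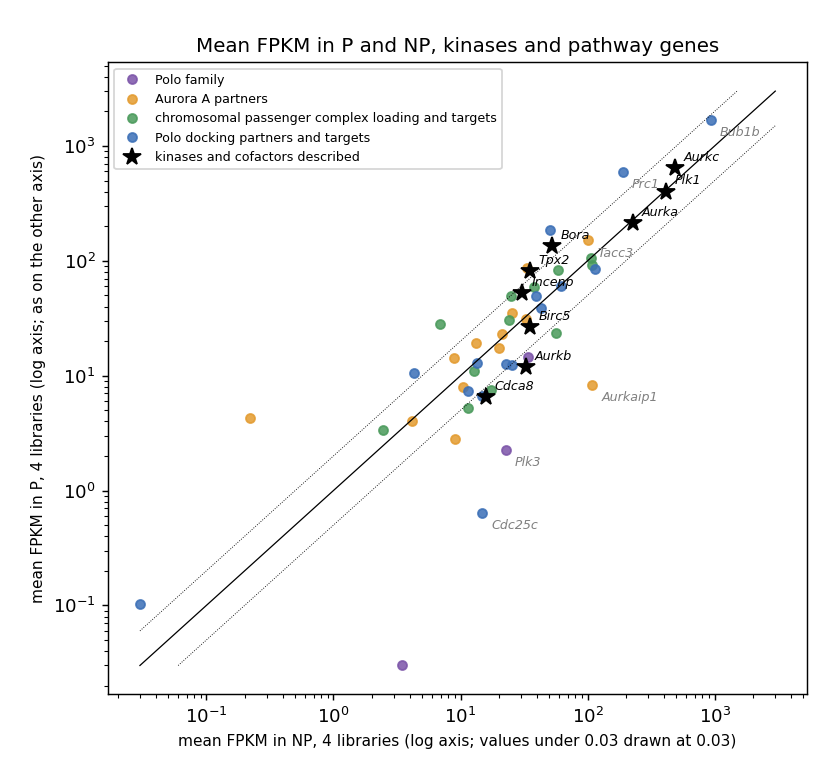
Mean FPKM of 4 P libraries against that of 4 NP libraries (log axes; means under 0.03 are drawn at 0.03), with black stars for the 9 genes described and coloured points for the 4 pathway lists. The solid line marks equal means and the dotted lines a ratio of 2 in either direction. Of the 43 pathway genes drawn, 7 lie above the upper line and 11 below the lower one. Of those above, Plk1s1, Hmmr, Mlf1ip, Sgol1 and Rec8 rest on 1 P library each, with 86.7% to 100% of the summed P values. The limma differences of Plk1s1 (−1.76) and Mlf1ip (−0.05) were below 0. Of those below, Plk2 and Plk4 had 100% and 80.1% of the NP sum in NP replicate 3. The share of all tested genes past these lines is not given here.

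The genes whose values followed a kinase most closely over the 8 libraries were found by Pearson's r of log2(FPKM + 1) among 5638 genes with a mean above 10 FPKM. For Aurka they were Pars2 (r = 0.945), C8b (0.944) and 8430427H17Rik (0.918). For Aurkc they were Psap (0.960), Rrnad1 (0.959) and Mos (0.953), the last an oocyte kinase listed at 1121 FPKM in NP and 1099 in P. For Plk1 they were 0610007C21Rik (0.938), Mki67ip (0.938) and Clns1a (0.936). These are the highest of many values over 8 libraries that share depth and amplification, and are given as a description only. Among the 9 genes themselves r ran from −0.78 (Incenp and Bora) to 0.55 (Birc5 and Cdca8), and it was 0.27 for Aurka with Aurkc and 0.10 for Aurka with Plk1.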

How the data were processed

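RNA from pooled polysomal (P) and non-polysomal (NP) gradient fractions was depleted of rRNA, reverse transcribed with random and oligo(dT) primers and amplified before library preparation, in 4 libraries per dataset that the methods describe as biological replicates. Reads were trimmed by the authors with Trim Galore 0.4.1, mapped to GRCm38 with HISAT2 2.0.5 and quantified in Seqmonk, and no source used here names the version of the gene annotation. The deposited table holds FPKM values of 25574 genes per library, made by the authors by scaling to gene length and library depth, and not log-transformed. A table of expressed genes with means and ratios, and a table of the authors' DESeq2 fold changes and p values, were not used. No column of values per library was left unmapped.

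P was compared with NP by 2-sided tests in limma 3.58.1 (R 4.3.3, lmFit followed by eBayes with a trend) on log2(FPKM + 1), over 14292 genes with a mean FPKM above 0.1 in P or NP. P values were adjusted by Benjamini-Hochberg over all of them, with calls at an adjusted p below 0.1. A fold change on this scale understates that of low genes. Ratios within a library were compared by exact permutation over 70 assignments in Python 3.11.15 with numpy 2.4.6. The Poisson interval was taken with scipy 1.17.1. Reads were recovered from the FPKM steps for 14662 of 15585 genes above 0, with the annotated length for 6978 and a searched length for 7684. Values within 0.01 of a whole read, or within 2e-06 of the value, counted as whole. The reads of the 9 genes behind a value ran from 1 to 5771. Voom on these reads was added after the data had been seen, as was the rescaling to transcript length. The fits were first run on simulated data with large planted changes. They had to recover most of these only at a spread set below that of the real libraries. These runs thus do not show the power for the 9 genes.

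Alternatives were a pseudocount of 0.1, no filter, a filter at a mean FPKM of 1, median scaling, quantile normalization, library weights, a replicate block and leaving out each library. Transcripts and 3′ ends came from GENCODE M21, and copies were sought with blastn 2.17.0 in the RefSeq GRCm38 genome. The members, pathway lists, markers and tests were chosen with earlier results of these data known. Named genes were the 9 members, the 3 genes closest in pattern to Aurka, Aurkc and Plk1, and in each pathway list any gene called and the 2 with the highest mean. Plk2, Plk5, Aurkaip1 and Cdc25c fall outside this rule, as do Plk1s1, Hmmr, Mlf1ip, Sgol1 and Rec8. They were named after their values were seen.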

Additional observations from a re-analysis of the deposited data

Results flagged for a closer look

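Of 30 groups of 4 values, 2 had an extreme library by Dixon's test at 95%, where chance gives about 1 in 20. Incenp in P replicate 2, at 147 FPKM, stood above the other P libraries (14.3 to 26.7), with a gap of 0.906 of the range. The log2 ratio of Plk1 to Aurka in NP replicate 4, at −0.22, stood below the other NP libraries (0.95 to 1.17), with a gap of 0.842 of the range. Neither library had few reads for these genes, with 1514 for Incenp in P replicate 2 and 2635 for Plk1 in NP replicate 4.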

How the results depend on the processing

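None of the 9 genes was called under any of the 16 other settings. Over all genes, the 3 calls became 5 with a pseudocount of 0.1 or a mean FPKM above 1, 0 without a filter, with median scaling or with quantile normalization, 212 by voom on recovered reads, and 0 to 5 when single libraries were left out. The fit with a replicate block called 1 gene, and none of the 9. The lowest adjusted limma p of the 9 in that fit was 0.405, for Aurkb (log2 difference −1.71, SE 0.76). After each dataset mean was subtracted, P and NP libraries of number 1, 2, 3 and 4 had correlations of 0.139, 0.0518, 0.251 and 0.155, against −0.14 to 0.14 across numbers. All 4 P and 3 of 4 NP libraries correlated best with their own number, a hint of pairing in the data. By the methods both pools came from the same gradients, but the labels do not say that a number marks 1 gradient. Because of this, and as not every value exceeded 0.1, the block was kept as an alternative. The main tests thus treat the P and NP libraries as unpaired. The log2 difference took the other sign for Aurka with median scaling (0.26) and without P replicate 4 (0.040), for Aurkc without NP replicate 3 (−0.11) or P replicate 1 (−0.18), and for Incenp without NP replicate 1 (−0.01) or P replicate 2 (−0.57). It did so for Birc5 with median scaling (0.23), quantile normalization (0.18), without NP replicate 4 (0.25) or P replicate 3 (0.18), and for Plk1 with library weights (−0.22), without NP replicate 4 (−0.32) or P replicate 4 (−0.17). The causes were not tested. With single libraries left out, the log2 differences ran from −0.54 to 0.040 for Aurka, from −0.18 to 0.60 for Aurkc, from −0.57 to 0.52 for Incenp, from −0.63 to 0.25 for Birc5 and from −0.32 to 0.39 for Plk1. Over all settings Aurkb ran from −2.34 to −0.85, Cdca8 from −1.42 to −0.34, Tpx2 from 0.83 to 1.62 and Bora from 0.01 to 1.51. Genes without overlap between P and NP were 0 to 1 of the 9 when a library was left out: Cdca8 without NP replicate 1, and Tpx2 without NP replicate 4 or P replicate 1. In each case the library left out was one that crossed, so its removal fixes the separation. The share of all tested genes without overlap is not given for these settings, so the counts are a description only.

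With single libraries left out, the log2 differences of the ratios ran from −1.85 to −0.89 for Aurka/Tpx2, with exact p of 0.0286 to 0.257 (the lowest without P replicate 1, which was the P library among the NP libraries, so that its removal fixes the separation and this p is no evidence), from 0.08 to 0.98 for Aurkc/Aurka, and from 0.32 to 1.08 for Birc5/Cdca8. They changed sign for Plk1/Bora (−1.29 to 0.16, without NP replicate 2, 0.11, or P replicate 3, 0.16). Aurkc/Incenp ran from −0.42 to 1.17 and was below 0 without NP replicate 3 (−0.32), P replicate 1 (−0.42), P replicate 3 (−0.08) or P replicate 4 (−0.23). Plk1/Aurka ran from −0.21 to 0.71, below 0 without P replicate 4 (−0.21). Aurkb had the fewest reads in a library, 1 in P replicate 4, while Plk1 had at least 2011 reads in every library. The cause of this low value was not tested.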
